A study of Mus musculus with 6 samples.

Results

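The aminoacyl-tRNA synthetases, the enzymes that load each amino acid onto its transfer RNA, were examined in mouse C2C12 myotubes after knockdown of *Dj1* (also known as *Park7*). The members were the 36 genes of this family chosen by the name that the array file gives each probe, of 30854 such names in all, and they comprised 20 cytosolic enzymes and 16 mitochondrial enzymes, whose names end in 2. C2C12 is an established myoblast line that fuses into multinucleated myotubes. Myoblasts received 60 nM of a non-targeting siRNA (Scramble) or of an siRNA against *Dj1* (siDJ-1), were induced to differentiate 48 h later, and were kept in differentiation for 4 days. Each group was measured on 3 arrays of the same BeadChip, and each group rests on a single siRNA in a single cell line. No label says that the 3 samples of a group came from separate cultures, so p-values measure the spread between these samples, which may be technical.

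A synthetase recognises its amino acid and the matching transfer RNA and joins them at the cost of ATP, and the charged transfer RNA then carries the amino acid to the ribosome. Separate nuclear genes encode most of the enzymes for the cytosol and for the mitochondria, because mitochondria translate their own small set of respiratory chain subunits. In the cytosol of mammals, several synthetases are held in a multisynthetase complex by the scaffold proteins Aimp1, Aimp2 and Eef1e1, and the remaining enzymes act outside it. Uncharged transfer RNA activates the kinase Gcn2 (Eif2ak4), which favours translation of the transcription factor Atf4, and several cytosolic synthetase genes are known Atf4 targets.

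Values are normalized log2 signals, and a change is the mean of the 3 siDJ-1 arrays minus the mean of the 3 Scramble arrays on that scale. A probe was tested with limma's moderated test when its detection p was under 0.05 on at least 3 of the 6 arrays, and it was called when its p, adjusted over all 17890 tested probes, was under 0.05. The targeted gene lay at 13.59, 13.37 and 13.63 on the Scramble arrays and at 12.48, 12.49 and 12.15 on the siDJ-1 arrays (PARK7, ILMN_2728754). The groups did not overlap, and the fitted change was -1.16 on the log2 scale, with a standard error of 0.14 (adjusted p = 0.00344, limma). A two-sided exact permutation test of a single probe cannot give a p below 0.1 with 3 arrays against 3, and it gave p = 0.1 for this probe and for each of the 10 called synthetase probes.

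Before normalization, the tested synthetase probes had median signals of 994.5, 957.5 and 902.2 with Scramble siRNA, against 925, 967.9 and 702.9 with siDJ-1. Their values rested on a median of 35 to 39 beads per array, and on at least 17. Relative to the signal, the bead standard error of a typical synthetase probe was 5.87%, 4.48% and 4.99% in the Scramble group, against 4.37%, 3.76% and 3.64% in the siDJ-1 group. Bead noise was thus higher on every Scramble array, and its part in the results was not tested.

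The myotube label was checked against marker genes. All 18 listed myotube markers were detected, with skeletal actin (Acta1) the most abundant at 15.29. Of 28 tested myotube marker probes, 17 were called lower and 0 higher (19 had an unadjusted p under 0.05 in limma), or 60.7% called, beside 30.1% of all tested probes. The lower calls include 1 probe each of Myh2 and Myh4 that passed the detection filter through the Scramble group, with detection on 0 and 1 siDJ-1 arrays. For the list, the summed normalized signal of 270926, 253814 and 259919 with Scramble siRNA compared with 198463, 210257 and 175413 with siDJ-1. In these bulk samples, fewer myotubes and less RNA of these genes per myotube cannot be told apart. Of 12 probes for myoblasts or proliferating cells, 4 were lower and 0 higher (33.3% called, near the share of all tested probes), and the median was 0.02. The probes with an unadjusted p under 0.05 in limma numbered 7. The 4 called lower among them were Ccnb1 (-0.57), Id1 (-0.57), Id3 (-1.4) and Myod1 (-0.9). The 3 uncalled among them had every siDJ-1 array above every Scramble array (Cdk1 0.30, Mki67 0.47 and Top2a 0.25). Other tested probes of these genes were not called (Ccnb1 -0.31, Mki67 0.2 and Top2a 0.23). For this list the sums were 7184, 7718 and 7114 against 6121, 6667 and 6589, Cdk1 was the most abundant, and Pax7 was detected on no array. Of the adipocyte markers, Adipoq, Cfd, Lep and Plin1 were detected on no array, and of the 2 tested probes Pparg, the more abundant, was higher and Cebpa lower, but the Cebpa probe was detected on 1 siDJ-1 array and passed the filter through the Scramble group (sums 262, 154 and 189 against 280, 305 and 380). Of 5 osteoblast probes, 1 was lower and 0 higher (20% called; 2 had an unadjusted p under 0.05 in limma), the lower one being that of the most abundant gene Spp1, the sums were 27803, 29004 and 26581 against 21643, 22652 and 19803, and Runx2 and Sp7 were detected on no array. Of 2 macrophage or leukocyte probes none was called by limma (1 had an unadjusted p under 0.05), the sums were 162, 237 and 183 against 146, 180 and 140 with Cd14 the more abundant, and Itgam and Ptprc were detected on no array. The part of these shifts in the synthetase values was not tested.

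The file lists 67 probes for the 36 synthetases, and 48 of them, for 29 genes, could be tested. Of these 48 probes, 10 (20.8%) were called, beside 30.1% of all tested probes. There were 3 higher probes (16.5% of all tested probes were called higher) and 7 lower probes (13.6% of all tested probes were called lower), and they belonged to 7 genes. The excess of lower calls depended on the setting. After background correction and a shift of the arrays to the same 75th percentile, 5 of 8 called synthetase probes were higher. With that shift and no background correction, 6 of 16 were higher, and with a plain t-test 4 of 8 were. The synthetase share was below that of the whole array in the main setting and in each of 15 alternative settings, but the size of both shares depended on the setting. Leaving out a Scramble array (replicate 1, 2 or 3) left 5, 6 and 5 called synthetase probes, and leaving out a siDJ-1 array left 2, 5 and 3. Across the whole array, the count of 5387 called probes was 5302, 3844 and 4074 without Scramble replicates 1, 2 and 3, and 2444, 3965 and 2612 without siDJ-1 replicates 1, 2 and 3. Without Scramble replicate 1, the share called thus stayed at 30.1% over all tested probes but was 10.4% for the synthetases. For 20 of the 48 probes (41.7%) no value of either group lay within the other, 13 of them lower and 7 higher, beside 48.5% of all tested probes. In the main setting, only EARS2 was called with a change of 2-fold or more, beside 5.73% of all tested probes. The changes were small in most of the family: the median absolute log2 fold change was 0.20, beside 0.30 over all tested probes.

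Most synthetase values lay a little below 0, except that the cytosolic median was just above 0 with the 75th percentile scaling. The log2 fold change was negative for 34 of the 48 probes (70.8%), beside 45.8% of all tested probes. Among the 32 cytosolic probes, 3 were higher, 4 were lower (21.9% called, beside 30.1% of all tested probes) and 25 were not called, and the median log2 fold change was -0.09. Among the 16 mitochondrial probes, 0 were higher, 3 were lower (18.8% called, likewise beside 30.1%) and 13 were not called, and the median was -0.23. Of the 16, 6 had an unadjusted p under 0.05 in limma, all with a lower siDJ-1 mean, and 3 of these were the called ones. The 6 included all 3 tested probes of RARS2, with the rest from EARS2, IARS2 and MARS2. The called ones belonged to 2 genes, EARS2 and RARS2. Over the whole array, 7659 of 17890 tested probes had an unadjusted p under 0.05. The median over all tested probes was 0.05. With the 75th percentile shift instead of quantile normalization, the cytosolic median was 0.01, so its sign depends on the scaling, while the mitochondrial median lay between -0.34 and -0.13 in all alternatives. The mitochondrial count was 1 without siDJ-1 replicate 1. The cytosolic count of 7 was 1 to 3 with an array left out and 1 with no filter. No test was made of the difference between cytosolic and mitochondrial enzymes.

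**Figure D1:**
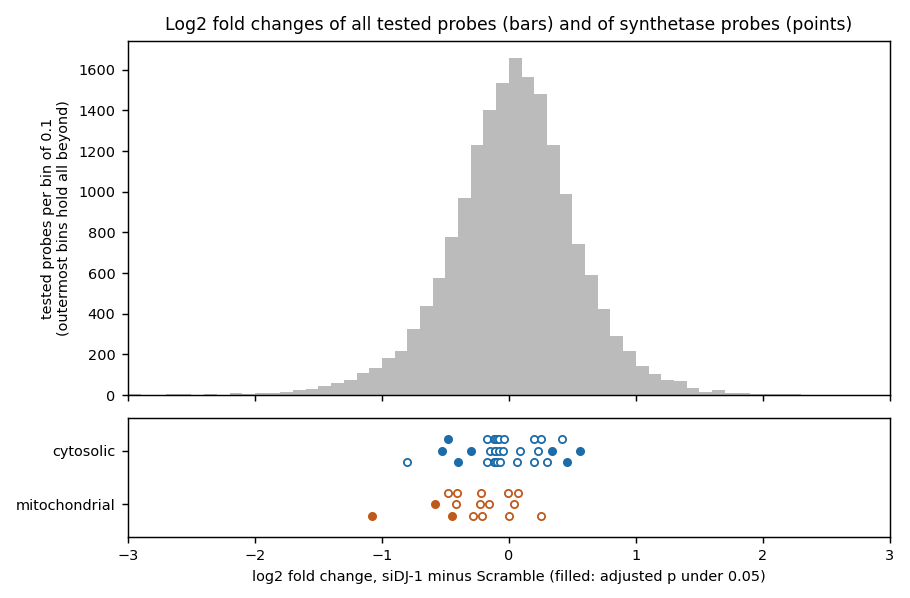
Number of tested probes per bin of the log2 fold change (siDJ-1 minus Scramble) for all 17890 tested probes (bars, with values beyond 3 in the outermost bins), and each tested synthetase probe as a point, filled where the adjusted p was under 0.05. The synthetase points lie within the body of the distribution, from -1.08 to 0.56, with a cytosolic median of -0.09 (0.01 with the 75th percentile shift) and a mitochondrial median of -0.23.

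Of the cytosolic enzymes in the multisynthetase complex, 5 of 15 tested probes (33.3%) were called, 3 of them higher and 2 lower, a share near the 30.1% of all tested probes. This grouping is textbook knowledge and was applied after the values had been seen. RARS, the arginyl-tRNA synthetase, fell on both of its probes. On ILMN_2591217 it lay at 11.03, 10.56 and 10.87 on the Scramble arrays and at 10.26, 10.39 and 10.21 on the siDJ-1 arrays, which is a change of -0.53 (standard error 0.14, adjusted p = 0.0336, limma). On ILMN_2907642 it lay at 11.25, 11.02 and 10.90 against 10.68, 10.63 and 10.41, a change of -0.48 (standard error 0.13, adjusted p = 0.0353). All siDJ-1 arrays were below all Scramble arrays on both probes, and 69.3% and 71.5% of the Scramble signal was left. With 1 array fewer these calls were mostly lost: the first probe passed only without Scramble replicate 2 (otherwise -0.58 to -0.43, adjusted p 0.0542 to 0.107), and the other only without Scramble replicate 3 (otherwise -0.53 to -0.39, adjusted p 0.0646 to 0.108). Both were also lost with the 75th percentile shift (-0.43 and -0.38, adjusted p = 0.0657 and 0.0638), with no filter (adjusted p = 0.0743 and 0.0785) and with the methods' t-test, which the study names for other measurements than the arrays (adjusted p = 0.0792 and 0.0747). Over all alternatives the adjusted p ran from 0.00239 to 0.107 and from 0.00255 to 0.108.

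QARS, the glutaminyl-tRNA synthetase, which sits beside RARS in the complex, moved the other way. On ILMN_2989257 it lay at 12.01, 11.92 and 11.93 on the Scramble arrays and at 12.31, 12.31 and 12.27 on the siDJ-1 arrays, which is a change of 0.34 (standard error 0.09, adjusted p = 0.0288, limma). On ILMN_2989263 it lay at 9.79, 9.67 and 9.79 against 10.14, 10.06 and 10.46, a change of 0.46 (standard error 0.13, adjusted p = 0.0381). Every siDJ-1 array was above every Scramble array on both probes, and siDJ-1 replicate 3 was the highest on the second of them. Another QARS probe was detected on no array and was not tested. The first of these calls held only without Scramble replicate 1 when an array was left out (otherwise 0.32 to 0.35, adjusted p 0.0683 to 0.1), and the other only without siDJ-1 replicate 2 (otherwise 0.34 to 0.50, adjusted p 0.0577 to 0.0935). With no filter neither was called (adjusted p = 0.0682 and 0.0848), and with the methods' t-test the second was not (adjusted p = 0.0772). Over all alternatives the adjusted p ran from 0.00115 to 0.1 and from 0.00439 to 0.0935.

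KARS, the lysyl-tRNA synthetase, gave different results on its 2 probes. On ILMN_2648230 it lay at 7.11, 7.19 and 7.27 on the Scramble arrays and at 7.71, 7.63 and 7.91 on the siDJ-1 arrays, which is a change of 0.56 (standard error 0.11, adjusted p = 0.0138, limma). On ILMN_2606848 it lay at 10.53, 10.85 and 10.82 against 10.44, 10.59 and 10.82, so that the groups overlapped, with a fitted value of -0.12 (95% confidence interval -0.47 to 0.22, adjusted p = 0.56). The first of these probes carries the name KARS in the file alone and matched no RefSeq record, while the second did, and the direction of KARS therefore rests on which probe is read. With the mean of the probes the value was 0.22 and not called (adjusted p = 0.207, where the alternatives ranged from 0.00542 to 0.207). KARS and GARS are single genes that encode both the cytosolic and the mitochondrial form of their enzyme, and both count as cytosolic here by name.

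The other enzymes of the complex had no called probe. EPRS, which joins both glutamate and proline to their transfer RNAs, IARS, LARS and MARS for isoleucine, leucine and methionine, and DARS for aspartate had fitted values from -0.17 to 0.25. All 10 uncalled probes of the complex had 95% confidence intervals within 0.5 of 0, so that changes beyond this size lie outside their intervals. DARS was the highest of these, at 10.16, 10.16 and 10.17 against 10.54, 10.34 and 10.36 on ILMN_2589477 (adjusted p = 0.1). Its groups did not overlap on this probe but did on its other tested probe.

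**Figure D2:**
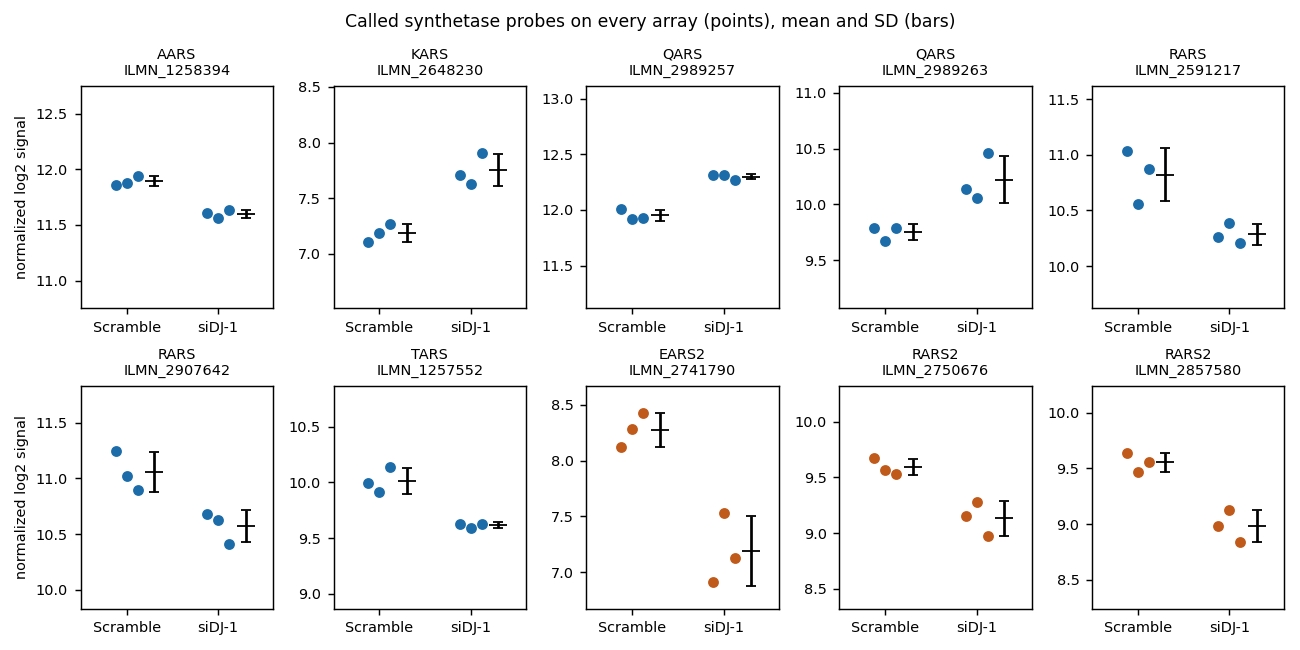
Normalized log2 signal of the 10 called synthetase probes on each of the 3 Scramble and 3 siDJ-1 arrays (points), with the mean and SD of each group (bars). Every panel spans 2 log2 units and no panel shows overlapping groups; EARS2 shows the widest gap, from 8.12 or more to 7.53 or less.

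The scaffold proteins of the complex were measured as a list of their own. Of 4 tested probes, 3 were lower and 0 higher (3 had an unadjusted p under 0.05 in limma), or 75% called, beside 30.1% of all tested probes, and the median log2 fold change was -0.52, beside 0.05 over all tested probes. Aimp2 (JTV1 in the file) lay at 10.13, 10.24 and 10.34 on the Scramble arrays and at 9.44, 9.67 and 9.51 on the siDJ-1 arrays on ILMN_2943217, a change of -0.70 (standard error 0.11, adjusted p = 0.00659, limma). Its other probe, ILMN_1244330, changed by -0.49 (adjusted p = 0.018). That call was lost without Scramble replicate 2 (-0.45, adjusted p = 0.0502), siDJ-1 replicate 1 (-0.52, adjusted p = 0.0522) or siDJ-1 replicate 3 (-0.41, adjusted p = 0.0559). Eef1e1, a small scaffold related to elongation factor 1, lay at 9.93, 10.16 and 10.03 against 9.47, 9.52 and 9.47 (-0.55, standard error 0.10, adjusted p = 0.0102), and this call and that of ILMN_2943217 held in all 15 alternatives. Aimp1 (SCYE1 in the file) lay at 12.13, 12.07 and 12.08 against 12.27, 12.30 and 12.18 and was not called (0.15, 95% confidence interval -0.07 to 0.37, adjusted p = 0.251).

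Of the cytosolic enzymes outside the complex, 2 of 17 tested probes (11.8%) were called, both lower, beside 30.1% of all tested probes. AARS, the alanyl-tRNA synthetase, lay at 11.86, 11.88 and 11.94 on the Scramble arrays and at 11.61, 11.56 and 11.63 on the siDJ-1 arrays, with little spread within either group. The change of -0.30 had a standard error of 0.09 (adjusted p = 0.0462, limma) and left 81.4% of the Scramble signal, but with the 75th percentile shift it was not called (-0.17, adjusted p = 0.256, where the alternatives ranged from 0.00439 to 0.256), nor with this shift and no background correction or with no filter (adjusted p = 0.0698 and 0.107). The call was lost without any 1 of the 6 arrays (-0.31 to -0.27, adjusted p 0.0607 to 0.127). TARS, the threonyl-tRNA synthetase, lay at 9.99, 9.91 and 10.14 against 9.63, 9.59 and 9.63 on ILMN_1257552 (-0.40, standard error 0.10, adjusted p = 0.0272). The groups did not overlap, but the call was lost without Scramble replicate 3 or any siDJ-1 array (-0.40 to -0.34, adjusted p 0.0668 to 0.0893). It was also lost with the 75th percentile shift (-0.34, adjusted p = 0.053), with no filter (adjusted p = 0.0631) and with the mean of both probes (-0.25, adjusted p = 0.15), in a range from 0.00674 to 0.15. On its other probe, ILMN_1239799, TARS lay at 7.71, 7.49 and 6.85 against 7.25, 7.06 and 7.40, with overlapping groups (-0.11, adjusted p = 0.74).

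FARSA, the alpha subunit of the phenylalanyl-tRNA synthetase, had the most negative fitted value of any cytosolic probe without being called. It lay at 8.81, 7.95 and 7.87 on the Scramble arrays and at 7.58, 7.48 and 7.16 on the siDJ-1 arrays (-0.80, 95% confidence interval -1.44 to -0.17, adjusted p = 0.0612). Scramble replicate 1 stood well above the others. FARSB, the beta subunit of the same enzyme, had values of -0.08 and -0.09 on its 2 probes, neither called. SARS, the seryl-tRNA synthetase, was higher on every siDJ-1 array than on any Scramble array on both probes (0.23 and 0.30), but neither was called (adjusted p = 0.098 and 0.0638). GARS, the glycyl-tRNA synthetase, was among the members closest to no change, at 13.89, 13.84 and 13.85 against 13.81, 13.80 and 13.84 (-0.04, 95% confidence interval -0.25 to 0.16, adjusted p = 0.733). NARS for asparagine and the 3 probes of VARS for valine had values between -0.08 and 0.20, none called, and for the dimmest VARS probe the 95% confidence interval ran from -1.38 to 1.23. WARS, the tryptophanyl-tRNA synthetase, had 4 tested probes with log2 differences of -0.11, -0.09, 0.09 and 0.42, none called (adjusted p = 0.358 to 0.65).

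The stretches before the gene start are shown for 3 of the cytosolic genes just described and for RARS2, described next, because they hold a motif that was searched for. RefSeq promoter windows (GRCm38.p6, 250 bases before to 50 after the gene start) matched 26 of the 36 members. The letters TGATGNAA, on either strand, are those of the composite element that C/EBP and ATF proteins, Atf4 among them, bind. They were in the windows of 5 of the 26 members (19.2%; AARS, GARS, IARS, TARS and YARS), beside 4.51% of all 27025 genes. The letters GCGCATGC, the core of the site of the nuclear respiratory factor NRF1, were in 3 members (11.5%; RARS2, VARS2 and WARS2), beside 3.05% of all genes, and GAAANNGAA, the core of the interferon-stimulated response element, was in 1 (3.85%; QARS), beside 9.76%. No member window held more than 1 kind of motif, so no matches of different motifs overlapped. The 250 bases before the start are given 5′ to 3′ on the strand of the gene, with the matched letters, on either strand, in capitals.
AARS promoter, chr8:111033592-111033841, plus strand: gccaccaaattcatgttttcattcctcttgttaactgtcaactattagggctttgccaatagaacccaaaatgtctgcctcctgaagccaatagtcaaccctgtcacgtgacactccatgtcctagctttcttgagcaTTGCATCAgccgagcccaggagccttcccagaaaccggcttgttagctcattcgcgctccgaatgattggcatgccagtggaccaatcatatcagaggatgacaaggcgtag
TARS promoter, chr15:11399659-11399908, minus strand: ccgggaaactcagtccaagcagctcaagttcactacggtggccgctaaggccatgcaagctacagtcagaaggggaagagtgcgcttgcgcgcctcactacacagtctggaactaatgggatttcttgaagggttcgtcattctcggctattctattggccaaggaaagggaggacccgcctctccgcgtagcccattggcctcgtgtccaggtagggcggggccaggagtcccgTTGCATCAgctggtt
GARS promoter, chr6:55037751-55038000, plus strand: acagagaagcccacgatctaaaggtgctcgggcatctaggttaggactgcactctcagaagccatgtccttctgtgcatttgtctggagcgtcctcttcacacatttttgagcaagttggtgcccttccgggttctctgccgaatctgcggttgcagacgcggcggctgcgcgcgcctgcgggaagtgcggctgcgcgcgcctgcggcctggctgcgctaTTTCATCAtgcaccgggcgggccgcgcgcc
RARS2 promoter, chr4:34614707-34614956, plus strand: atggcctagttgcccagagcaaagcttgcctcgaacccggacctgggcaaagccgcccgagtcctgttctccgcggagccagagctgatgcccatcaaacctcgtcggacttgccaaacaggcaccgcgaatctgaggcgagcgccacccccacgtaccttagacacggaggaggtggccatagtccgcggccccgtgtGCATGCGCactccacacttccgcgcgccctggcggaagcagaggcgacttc
Of the genes with the composite element, AARS and TARS each had a called lower probe, GARS and IARS had none, and YARS was not tested. Of those with the NRF1 letters, RARS2 was lower on 2 probes, and VARS2 and WARS2 were not called. A match of letters is a description of the window and does not show binding.

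EARS2, the mitochondrial glutamyl-tRNA synthetase, had the largest change of the family in the main setting. It lay at 8.12, 8.28 and 8.43 on the Scramble arrays and at 6.91, 7.53 and 7.13 on the siDJ-1 arrays. The 3 siDJ-1 arrays were all lower, with a wider spread among them than among the Scramble arrays. The fitted change was -1.08 (standard error 0.18, 95% confidence interval -1.51 to -0.66, adjusted p = 0.00727, limma), which leaves 47.1% of the Scramble signal. It was the single synthetase probe whose call held in all 15 alternatives, where the change lay between -1.25 and -0.66. The result for EARS2 rests on this 1 tested probe. A probe of the gene listed under another name was detected on no array and was not tested. Mitochondria have no glutaminyl-tRNA synthetase of their own: EARS2 also charges the glutamine transfer RNA with glutamate, and an amidotransferase of Qrsl1, Gatb and Gatc converts it. None of the 7 tested probes of these subunits was called by limma (1, for Qrsl1, had an unadjusted p under 0.05), with values from -0.57 to 0.11.

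RARS2, the mitochondrial arginyl-tRNA synthetase, fell on 2 of 3 tested probes. On ILMN_2857580 it lay at 9.64, 9.47 and 9.56 on the Scramble arrays and at 8.98, 9.13 and 8.84 on the siDJ-1 arrays (-0.58, standard error 0.11, adjusted p = 0.0126, limma), and on ILMN_2750676 at 9.67, 9.57 and 9.53 against 9.15, 9.28 and 8.97 (-0.45, standard error 0.11, adjusted p = 0.0273). On ILMN_2857581 it lay at 9.15, 9.31 and 8.77 against 8.50, 8.91 and 8.39, where the groups overlapped and the probe was not called (-0.48, adjusted p = 0.11). The 3 values are of similar size, and siDJ-1 replicate 2 was the highest siDJ-1 array on each probe. The call of ILMN_2857580 was lost only without siDJ-1 replicate 1 (-0.57, adjusted p = 0.0504), and that of ILMN_2750676 without Scramble replicates 1 or 2 or siDJ-1 replicates 1 or 3 (-0.46 to -0.37, adjusted p 0.0563 to 0.083). The second call was also lost with no filter (adjusted p = 0.062) and with the methods' t-test (adjusted p = 0.05), in a range from 0.00676 to 0.083. Of the amino acids with a separate cytosolic and mitochondrial gene tested, arginine was the single case in which both genes had a called probe.

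The remaining mitochondrial enzymes had no called probe. MARS2 for methionine came closest, at 7.91, 8.01 and 7.98 against 7.66, 7.70 and 7.33 (-0.41, 95% confidence interval -0.71 to -0.10, adjusted p = 0.0519), with groups that did not overlap. IARS2 for isoleucine had values of -0.28 and -0.42, and LARS2 for leucine and CARS2 for cysteine of -0.22 and -0.21. FARS2, for phenylalanine, had the most positive value of the mitochondrial probes, 0.25 (95% confidence interval -0.04 to 0.54, adjusted p = 0.166), with overlapping groups. VARS2 and TARS2 were the mitochondrial members closest to no change. VARS2 lay at 9.71, 9.56 and 9.21 on the Scramble arrays and at 9.67, 9.54 and 9.26 on the siDJ-1 arrays (0.00, 95% confidence interval -0.41 to 0.40), and TARS2 at 7.95, 7.75 and 8.18 against 8.06, 8 and 7.81 (-0.01, 95% confidence interval -0.34 to 0.33). The values of PARS2, SARS2 and WARS2, all dim, lay between -0.23 and 0.07, with intervals as wide as -1.15 to 0.68. Intervals were wider than in the cytosolic group: 5 of 13 uncalled mitochondrial probes (38.5%) and 20 of 25 uncalled cytosolic probes (80%) had 95% confidence intervals within 0.5 of 0, beside 37.8% of all uncalled probes.

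**Figure D3:**
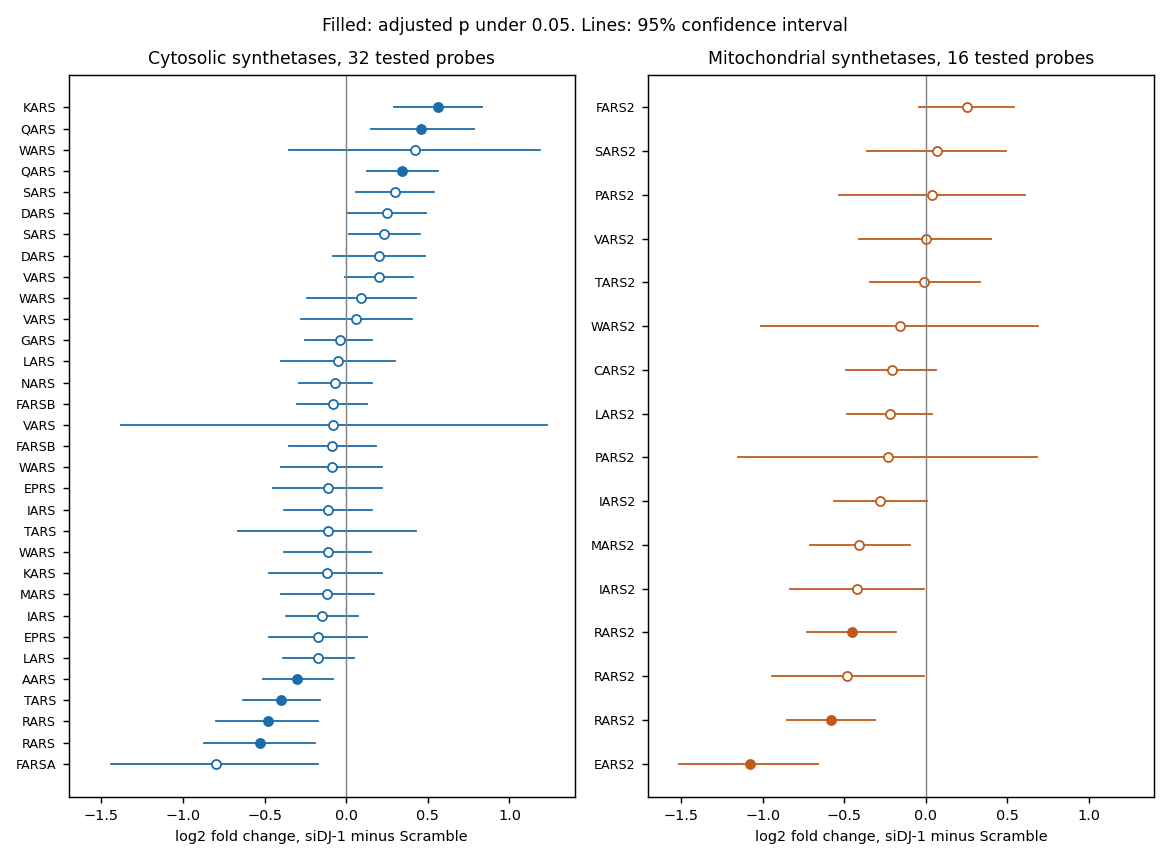
Log2 fold change (siDJ-1 minus Scramble) of each of the 32 cytosolic and 16 mitochondrial synthetase probes tested, with its 95% confidence interval, filled where the adjusted p was under 0.05. KARS and QARS stand at the top of the cytosolic panel (0.56 and 0.46), FARSA at its foot (-0.80, not called), and EARS2 at the foot of the mitochondrial panel (-1.08).

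The other 19 synthetase probes were detected on fewer than 3 arrays, 10 of them on none, with signals before normalization between 116.7 and 209.1. They leave 7 genes without a tested probe: CARS, HARS and YARS of the cytosolic and AARS2, HARS2, NARS2 and YARS2 of the mitochondrial enzymes. Nothing can be said of a change in these genes. The file also lists 4 probes of member genes under other names, of which 2 were tested, and neither was called by limma or had an unadjusted p under 0.05 (Cars2, 0.35, adjusted p = 0.162; Mars2, -0.25, adjusted p = 0.143). The added Cars2 probe and the member probe of CARS2 had values of opposite sign.

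Genes that work with the synthetases under other names were mostly uncalled. Of 21 tested probes for other synthetases, proofreading and transfer RNA end-processing, 2 were higher and 1 lower (14.3% called, beside 30.1% of all tested probes), and the median log2 fold change was -0.13. Dtd2, a deacylase that removes wrongly attached residues from transfer RNA, lay at 7.64, 7.36 and 7.79 on the Scramble arrays and at 8.71, 8.61 and 8.67 on the siDJ-1 arrays (1.07, standard error 0.13, adjusted p = 0.00372, limma). The siDJ-1 signal was 209% of the Scramble signal. The call held in all 15 alternatives, with values between 0.70 and 1.16. Both probes of Trnt1, which adds the CCA end to transfer RNA, were called in opposite directions (0.75, adjusted p = 0.0457, and -0.38, adjusted p = 0.0481), and each call was lost without 5 of the 6 arrays. Those losses had adjusted p from 0.0502 to 0.139 and from 0.0946 to 0.138, and the first call held without Scramble replicate 3 and the other without Scramble replicate 1. Both were also lost with the 75th percentile shift (adjusted p = 0.0542 and 0.079), with no filter, with the methods' t-test and with the mean of both probes (0.18, adjusted p = 0.342, the highest of the alternatives, which started at 0.0177 and 0.0149). The higher Trnt1 probe was detected on 2 Scramble arrays and passed the filter through the siDJ-1 group, so that the size of its rise is uncertain. The list had 1 called probe without siDJ-1 replicate 1, 2 or 3, and its median was between -0.22 and 0.01 over the alternatives.

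Of 15 tested probes for transfer RNA export and elongation, 1 was higher and 2 were lower (20% called, beside 30.1% of all tested probes). The median was 0.11, and between 0.08 and 0.29 over the alternatives. Xpot, the exporter of transfer RNA from the nucleus, lay at 10.45, 10.48 and 10.34 on the Scramble arrays and at 9.67, 9.83 and 9.53 on the siDJ-1 arrays (-0.75, standard error 0.11, adjusted p = 0.00595, limma). A second probe named XPOT in the file was at 0.04 (adjusted p = 0.843), and the mean of both probes was not called (-0.35, adjusted p = 0.0547, the highest of its alternatives, which started at 8.82e-05). EEF1A1, the factor that brings charged transfer RNA to the ribosome, was higher on ILMN_1244894 (0.92, adjusted p = 0.0236), a probe named by the file alone, while the 2 probes matched to Eef1a1 were at 0.09 and -0.03. Its call was lost without siDJ-1 replicates 2 or 3 (0.86 and 0.78, adjusted p = 0.0664 and 0.0797), with no filter, with the methods' t-test and with the mean of its probes (0.32, adjusted p = 0.062, in a range from 0.00681 to 0.0829). Eef1d, a nucleotide exchange subunit for this factor, was lower on ILMN_3139168 (-0.70, adjusted p = 0.0152), a call lost without siDJ-1 replicate 1 (-0.69, adjusted p = 0.0563), with the methods' t-test and with the mean of its probes (-0.28, adjusted p = 0.0579, in a range from 0.00174 to 0.0579), and its other probe was at 0.15 and not called.

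Of 22 tested probes for translation initiation and its kinases, 1 was higher and 7 were lower. The called share of 36.4% was near the 30.1% of all tested probes, of which 16.5% were higher and 13.6% lower. The median was -0.20, and between -0.29 and -0.11 over the alternatives. Eif2ak2, the kinase that double-stranded RNA activates and an interferon-induced gene, lay at 11.36, 11.72 and 11.63 on the Scramble arrays and at 10.36, 10.39 and 9.96 on the siDJ-1 arrays (-1.33, standard error 0.16, adjusted p = 0.00356, limma). The helicase gene Eif4a1 fell by 0.60 on the log2 scale (adjusted p = 0.00585), and Eif4ebp1, which restrains cap-dependent initiation, rose by 0.57 (adjusted p = 0.0174). The Eif4ebp1 call was lost without siDJ-1 replicate 1 or 3 (0.58 and 0.49, adjusted p = 0.0602 and 0.0556), and the count of called probes was 3 and 4 without these arrays. Eif2ak4, which encodes Gcn2, was not tested, since 1 of its probes was detected on no array and the other on 1 array.

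Of 38 tested probes for the Gcn2 and Atf4 response, 7 were higher and 6 were lower, and the called share of 34.2% was near the 30.1% of all tested probes. The median was 0.21, but 0.07 with no filter and 0.04 with the mean per gene. Among the higher calls, a Vldlr probe (ILMN_2458671) and a Cebpg probe (ILMN_2972026) were detected on 1 and 2 Scramble arrays. Both were detected on all 3 siDJ-1 arrays and passed the detection filter through that group. Atf4 itself was lower on both probes. It lay at 13.36, 13.28 and 13.35 on the Scramble arrays and at 12.87, 12.93 and 12.75 on the siDJ-1 arrays on ILMN_2642681 (-0.48, standard error 0.10, adjusted p = 0.0137, limma), and its other probe changed by -0.74 (adjusted p = 0.0125). Both calls were lost only without siDJ-1 replicate 1 (-0.49 and -0.66, adjusted p = 0.0527 and 0.0504). Chac1, an Atf4 target that breaks down glutathione, lay at 11.45, 11.22 and 11.17 against 10.24, 10.07 and 10.27 (-1.08, adjusted p = 0.0031). The amino acid transporter subunit Slc3a2 and the transcription factor Cebpg were higher (0.83 and 0.74, adjusted p = 0.0391 and 0.0192), and the second Cebpg probe was at 0.28 and not called. The Slc3a2 call was lost without Scramble replicates 2 or 3 or siDJ-1 replicates 1 or 3 (adjusted p 0.0848 to 0.122), and that of Cebpg without siDJ-1 replicates 1 or 3 (adjusted p = 0.0714 and 0.0701). The methods' t-test called neither (adjusted p = 0.117 and 0.0646, in ranges from 0.00477 to 0.122 and from 0.0124 to 0.0714), and without a filter Slc3a2 was not called. The signals of the called Cebpg probe overlapped between groups before normalization, and it was detected on 2 Scramble arrays. The size of its rise is therefore uncertain (0.23 with no background correction). Asparagine synthetase (Asns) had values of 0.00, 0.33 and 0.47 on its 3 probes, Ddit3 of 0.64 and 0.67 on 2 probes, and Trib3 of -0.47, -0.32 and 0.50 on 3 probes, none called. The count for the list was 2 without siDJ-1 replicate 1, 4 without siDJ-1 replicate 3 and 8 without Scramble replicate 3.

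Factors of mitochondrial translation had 2 higher and 4 lower probes among 23 tested (26.1% called, near the 30.1% of all tested probes). The median was -0.13, and between -0.21 and -0.07 over the alternatives. Gtpbp3, which modifies mitochondrial transfer RNA, lay at 8.97, 8.80 and 8.92 on the Scramble arrays and at 9.68, 9.60 and 9.66 on the siDJ-1 arrays (0.75, standard error 0.10, adjusted p = 0.00391, limma). The initiation factor Mtif3 was higher on ILMN_2493815 (0.78, adjusted p = 0.00953), which was detected on 1 Scramble array, so that the size of this rise is uncertain (0.25 with no background correction), and its other probe was at -0.01. Lrpprc, which stabilises mitochondrial messenger RNA, was lower on ILMN_2845214 (-0.84, adjusted p = 0.0174), and the ribosome recycling factor Mrrf on ILMN_2940766 (-0.71, adjusted p = 0.0279). Their other tested probes were not called, at -0.49 and -0.03 for Lrpprc and at 0.15 for Mrrf. The Lrpprc call was lost without siDJ-1 replicates 1 or 3 (adjusted p = 0.0626 and 0.0646) and the Mrrf call without these or Scramble replicates 2 or 3 (adjusted p 0.0516 to 0.0734). Both were also lost with the methods' t-test and with the mean of their probes (-0.45 and -0.28, adjusted p = 0.0729 and 0.0702, in ranges from 0.00378 to 0.0729 and from 0.0132 to 0.0847), and the Mrrf call with no filter. The count for the list was 3 without siDJ-1 replicate 1 and 3 without siDJ-1 replicate 3.

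Regulators of growth and of the translation machinery had 1 higher and 4 lower probes among 9 tested (55.6% called, beside 30.1% of all tested probes). The median was -0.60, but between -0.67 and -0.21 over the alternatives, nearest to 0 with no filter. The nucleolar protein gene Nop56 lay at 8.77, 9.78 and 9.44 on the Scramble arrays and at 7.09, 7.63 and 6.88 on the siDJ-1 arrays (-2.13, standard error 0.30, adjusted p = 0.00475, limma). Of the Max partner proteins that oppose Myc, Mxi1 rose by 1.10 on the log2 scale (adjusted p = 0.00645) and Mxd1 fell by 0.87 (adjusted p = 0.0124). The Mxd1 call was lost with the methods' t-test (adjusted p = 0.0509, in a range from 0.0022 to 0.0509), and with no background correction its value was -0.47. Neither Myc probe was detected on any array, and Myc was not tested.

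The interferon list was taken because interferon gamma is known to induce WARS. Of its 21 tested probes, 0 were higher and 11 were lower (52.4% called, beside 30.1% of all tested probes; 11 had an unadjusted p under 0.05 in limma, and the methods' t-test also called 11), and the median was -0.66, beside 0.05 over all tested probes. Cxcl10, an interferon-induced chemokine, lay at 8.91, 9.45 and 9.29 on the Scramble arrays and at 6.63, 6.67 and 6.31 on the siDJ-1 arrays (-2.68, standard error 0.17, adjusted p = 0.00224, limma; -1.69 with no background correction). Isg15, an interferon-induced ubiquitin-like protein, lay at 12.59, 12.91 and 12.66 against 10.95, 11.43 and 10.78 (-1.67, adjusted p = 0.00317). The 4 WARS probes, given above, did not pass the test in either direction. The difference between WARS and this list was not tested.

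**Figure D4:**
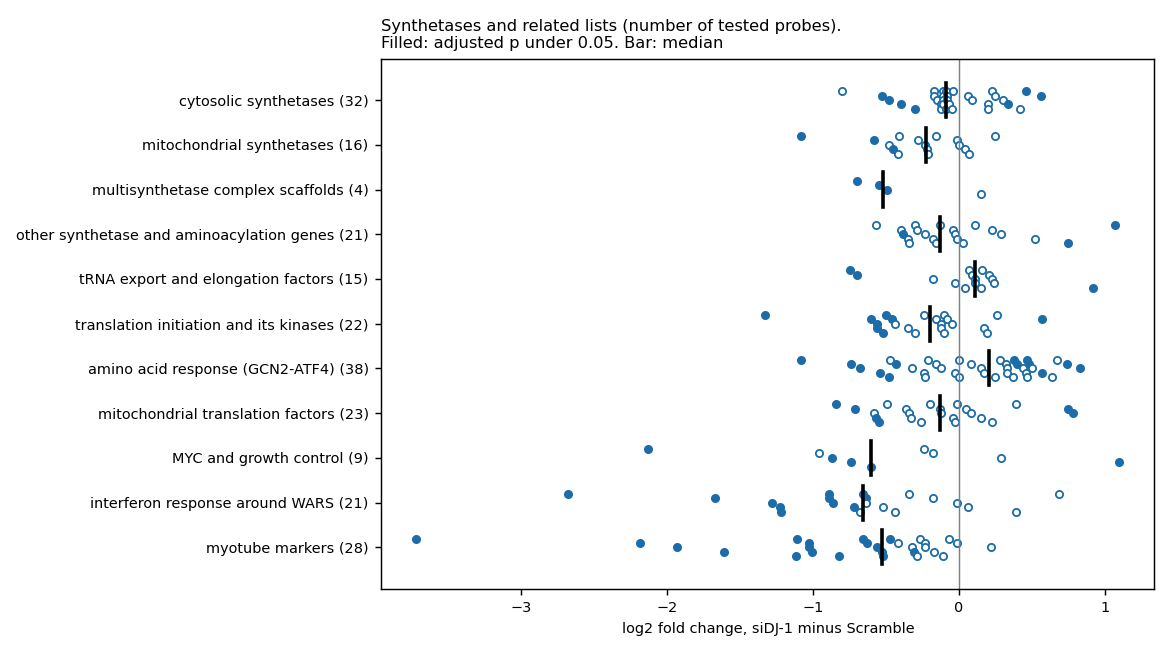
Log2 fold change (siDJ-1 minus Scramble) of every tested probe of the cytosolic and mitochondrial synthetases, of 8 related gene lists and of the myotube markers, filled where the adjusted p was under 0.05, with a bar at each median. The cytosolic median is -0.09 (0.01 with the 75th percentile shift) and the mitochondrial median is -0.23. Medians of 5 related lists lie between -0.20 and 0.21, and those of the scaffolds (-0.52), growth control (-0.60), the interferon list (-0.66) and the myotube markers (-0.53) lie further below 0.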

How the data were processed

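Total RNA of 3 Scramble and 3 siDJ-1 samples was measured on 1 Illumina mouse BeadChip. For 45281 probes, the authors deposited the mean signal intensity over beads, its standard error and the number of beads, neither normalized nor background-corrected. A detection p-value per probe and array was deposited beside them. Columns were matched to samples by title.

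Background correction (normexp from the detection p-values, offset 16), quantile normalization and log2 were done by neqc in limma 3.58.1 (R 4.3.3). Probes detected at p under 0.05 on 3 or more of 6 arrays (17890) entered lmFit and eBayes, and Benjamini-Hochberg adjustment ran over these probes. The steps were tested on simulated data. RefSeq (GRCm38.p6) named 32345 probes by Entrez number or accession, and the file named the rest. Members were taken by the name in the file, ignoring case, and each probe of a gene was tested separately. Figures were drawn with matplotlib 3.10.9 (Python 3.11.15).

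The members and lists were chosen with earlier results of these data known. The lists were complex scaffolds, other synthetase and aminoacylation genes, transfer RNA export and elongation, translation initiation, the Gcn2 and Atf4 response, mitochondrial translation factors, growth control around Myc, the interferon response, and markers of myotubes, myoblasts or proliferating cells, adipocytes, osteoblasts, and macrophages or leukocytes. Array values are given for called members and those closest to no change. Of each pathway list, the 2 largest rises and 2 largest falls are named among called probes with no overlap between groups, if at least 1 group had all its arrays detected. Park7, Atf4, Ddit3, Asns, Trib3, Eif2ak4, Myc, Aimp1, Aimp2 and Eef1e1 are named in any case, and 1 other gene of this rule is not reported here. The array values of FARSA, DARS and MARS2, the marker genes, the amidotransferase subunits, other probes of named genes, the grouping by complex and the promoters shown were chosen after the values were seen.

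Alternatives were no background correction (values below 1 set to 1), scaling by the 75th percentile with or without that correction, all probes tested, detection at p under 0.01 on every array, a prior variance trend, the methods' t-test, a replicate block, leaving out each array, and the mean of probes per gene. The methods' t-test is the plain test with equal variance that the study names for other measurements, while for the arrays it states a moderated test. Calls that ended with the replicate block are given only with the dependence on processing. Adding member probes listed under other names was chosen after seeing the data.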

Additional observations from a re-analysis of the deposited data

How the results depend on the processing

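The fall of Park7 was called in all 15 alternatives, with log2 fold changes from -1.24 to -1. Across the array, 3519 probes were called with no filter and 2444 to 5302 with an array left out (5387 in all 6 arrays). Called synthetase probes numbered 16 with the 75th percentile shift and no background correction, 3 with no filter, 5 with the mean per gene (of 29 genes tested) and 2 to 6 with an array left out, against 10. After background correction, the shift to a 75th percentile gave 8, of which 5 were higher, against 3 of 10. Of the 16 with this shift and no background correction, 6 were higher. Cytosolic probes numbered 1 with no filter, 3 with the mean per gene, 3 with the replicate block and 1 to 3 with an array left out, against 7. Mitochondrial probes numbered 5 with no background correction, 7 when this was joined to the 75th percentile shift, 5 with the prior variance trend and 1 to 3 with an array left out, against 3. The cytosolic median log2 fold change of -0.09 was 0.01 with the 75th percentile shift, -0.03 with this shift and no background correction, and -0.11 to -0.04 with an array left out. The mitochondrial median of -0.23 was -0.15 with no background correction, -0.16 with this and the 75th percentile shift, -0.34 with the stricter filter, -0.13 with the mean per gene, and -0.29 to -0.17 with an array left out. The list of other synthetase and aminoacylation genes (3 called) had 5 with no background correction and with the variance trend, 1 with the 75th percentile shift, no filter, the methods' t-test or the mean per gene, and 1 to 2 with an array left out. Transfer RNA export and elongation (3) had 8 with no background correction and the 75th percentile shift and 0 with the mean per gene. Translation initiation (8) had 3 to 8 with an array left out. The Gcn2 and Atf4 response (13) had 7 with no filter and with the methods' t-test and 2 to 11 with an array left out. Mitochondrial translation factors (6) had 3 with the methods' t-test and with the mean per gene and 3 to 8 with an array left out. Counts for the scaffolds, growth control and the interferon response stayed within 1.5 times, but the growth control median of -0.60 was -0.21 with no filter, and the Gcn2 and Atf4 median of 0.21 was 0.04 with the mean per gene. The lower Trnt1 probe turned to 0.18 with the mean per gene, which joins it to the probe called higher. Leaving out an array gives fewer samples and omitting the filter more tests, but without Scramble replicate 1 the called share of the whole array was still 30.1%. The cause of these changes was not tested. No label says whether samples with the same replicate number belong together, and the values do not settle it. Deviations of same-numbered samples correlated weakly, at 0.054, 0.047 and 0.020, but those of different numbers at -0.047 to -0.004. The median array signals before normalization were also close by number. They were 162.2, 167.4 and 153.5 with Scramble siRNA and 161, 166.9 and 152.3 with siDJ-1. A shared handling of same-numbered samples was not tested. With the replicate block, 4350 probes across the array and 7 synthetase probes were called. AARS, both QARS probes, RARS on ILMN_2591217, TARS on ILMN_1257552, Trnt1 on ILMN_1253587 and Slc3a2 were then not called (adjusted p 0.0512 to 0.0981), and 2 other synthetase probes were.

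Of the 10 called synthetase probes, 1 (EARS2) was called in every alternative and 9 were not, and none changed sign. Adding the probes under other names left 10 calls. Precision was limited by 3 arrays per group, and for dim probes by their signal over background.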
